A study of Danio rerio with 15 samples.

Results

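The genes described here encode tubulins, the building blocks of microtubules, and the proteins that nucleate, bind, stabilise or destabilise them. They were chosen by name: every gene ID of the table whose symbol starts with tuba, tubb, tubg, stmn, map1a, map1b, map1s, map6, map7, mapt, dcx or dclk, or is map2 or map4, ignoring case. That rule found 54 of 22513 gene IDs: 11 alpha tubulins, 7 beta tubulins, 5 genes of gamma tubulin and its complex, 7 stathmins, 3 genes of MAP2 and tau, 5 of the MAP1 family, 3 of the MAP6 family, 7 of the MAP7 family, 5 doublecortin-like kinases and DCXR. DCXR, a sugar reductase that shares only its first letters with doublecortin, was carried along by the rule and did not pass (2.22 against 2.71 CPM, counts scaled to a common library size; adjusted p = 0.442). No ID carried the symbol dcx or map4. Several symbols stand for more than 1 ID, and these are told apart by their Ensembl IDs. Such IDs are called copies here by their symbols alone, and a shared origin was not tested.

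Microtubules are hollow polymers of alpha and beta tubulin pairs that grow and shrink at their ends, and gamma tubulin starts new ones. Vertebrates carry many tubulin genes, called isotypes, whose products differ mostly in their tails and are used in different mixtures by different cell types. Neurons use stabilising proteins such as MAP2 and tau to keep the long microtubules of dendrites and axons, while dividing cells take their microtubules apart and rebuild them as a spindle. Stathmins bind free tubulin and promote shrinkage.

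Messenger RNA was sequenced from 7 zebrafish brain tumors (libraries 5, 6, 7, 8, 12, 13 and 14), named by the submitters as NRAS-driven tumors of the CNS-PNET type (primitive neuroectodermal tumors, with NRAS a growth-signalling GTPase), and from 8 normal whole brains (libraries 1, 2, 3, 4, 9, 10, 11 and 15). The tumors were dissected out of the brain, so a piece of tumor is set against a whole organ. The labels give no strain, age, sex, transgene or promoter for either group, and do not say that each library came from its own fish. The p-values thus weigh group differences against the spread between these libraries, which may not be the spread between fish. Libraries held 13605588 to 21347976 counts. The neuron markers, 25 IDs without any gene described here, summed to 13690.0 to 16098 CPM in normal brain and to 600.0 to 3334 CPM in the tumors, lowest in tumor 13, and 24 of them fell. The 14 cell division marker IDs summed to 158 to 207 CPM in normal brain and 1506 to 3159.7 CPM in the tumors, and 13 of them rose. Liver markers stood at 9756 CPM in normal brain 1, photoreceptor markers at 157 CPM in normal brain 2 and skin markers at 3169.9 CPM in normal brain 4, each the highest of all libraries. Skin markers were also at 1703, 1444 and 744 CPM in tumors 7, 12 and 14, and at 259.06 to 558 CPM in the other tumors. Normal brains other than 4 held 63.1 to 258.11 CPM, so every tumor lay above them. Of 6 skin IDs 1 rose. Muscle markers, of which 7 of 12 IDs rose, summed to 15.9 to 175 CPM in normal brain, to 679, 826, 798 and 1679.9 CPM in tumors 5, 6, 12 and 14, and to 18.4 to 89.4 CPM in the other 3 tumors. The part of these tissues in the values below was not tested. Of the markers of other brain cells, 7 of 8 for the oligodendrocyte lineage and 8 of 10 for microglia rose. All these counts of marker IDs are to be read against all tested genes, of which 43.5% were higher and 33.4% lower. The normal brains 1, 2 and 4 and tumor 13, the lowest in neuron markers, are the 4 libraries in doubt below. Tumors with high skin or muscle markers stay in when these 4 are left out.

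More of the microtubule genes were lower than higher in the tumors against normal brain. Of all tested genes more were higher than lower with the scaling used here, an excess that depends on the scaling. In edgeR's quasi-likelihood test with Benjamini-Hochberg adjustment over all 19260 tested genes, 32 of the 54 IDs were lower in brain tumor and 14 were higher at an adjusted p below 0.05, 7 did not pass, and DCLK3 had too few counts to be tested. Either way 46 passed, where 76.9% of all tested genes did. That is 59.3% lower and 25.9% higher, where 33.4% of all tested genes were lower and 43.5% were higher. Their median log2 fold change was -1.16, against 0.21 over all tested genes. With median-ratio scaling these medians were -1.36 and 0.02, so small increases are relative to the scaling chosen. That scaling gave 37.7% of all tested genes higher and 37.7% lower, with 13 members higher and 34 lower. In the main fit, taking a 2-fold change as a minimum left 29 lower and 9 higher members, against 25% and 27.3% of all tested genes. In 28 members every tumor lay below every normal brain and in 8 every tumor lay above, against 24.6% and 27.2% of all tested genes. Without the 4 libraries in doubt these counts were 30 and 9, against 27.3% and 31.3%. Neuronal stathmins and the structural MAPs made up most of the decreases, and tubulin isotypes most of the increases. In bulk tissue, fewer cells of a type and less RNA per cell cannot be told apart, and the part that the loss of neuron markers and the gain of division markers have in these values was not tested.

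**Figure D1:**
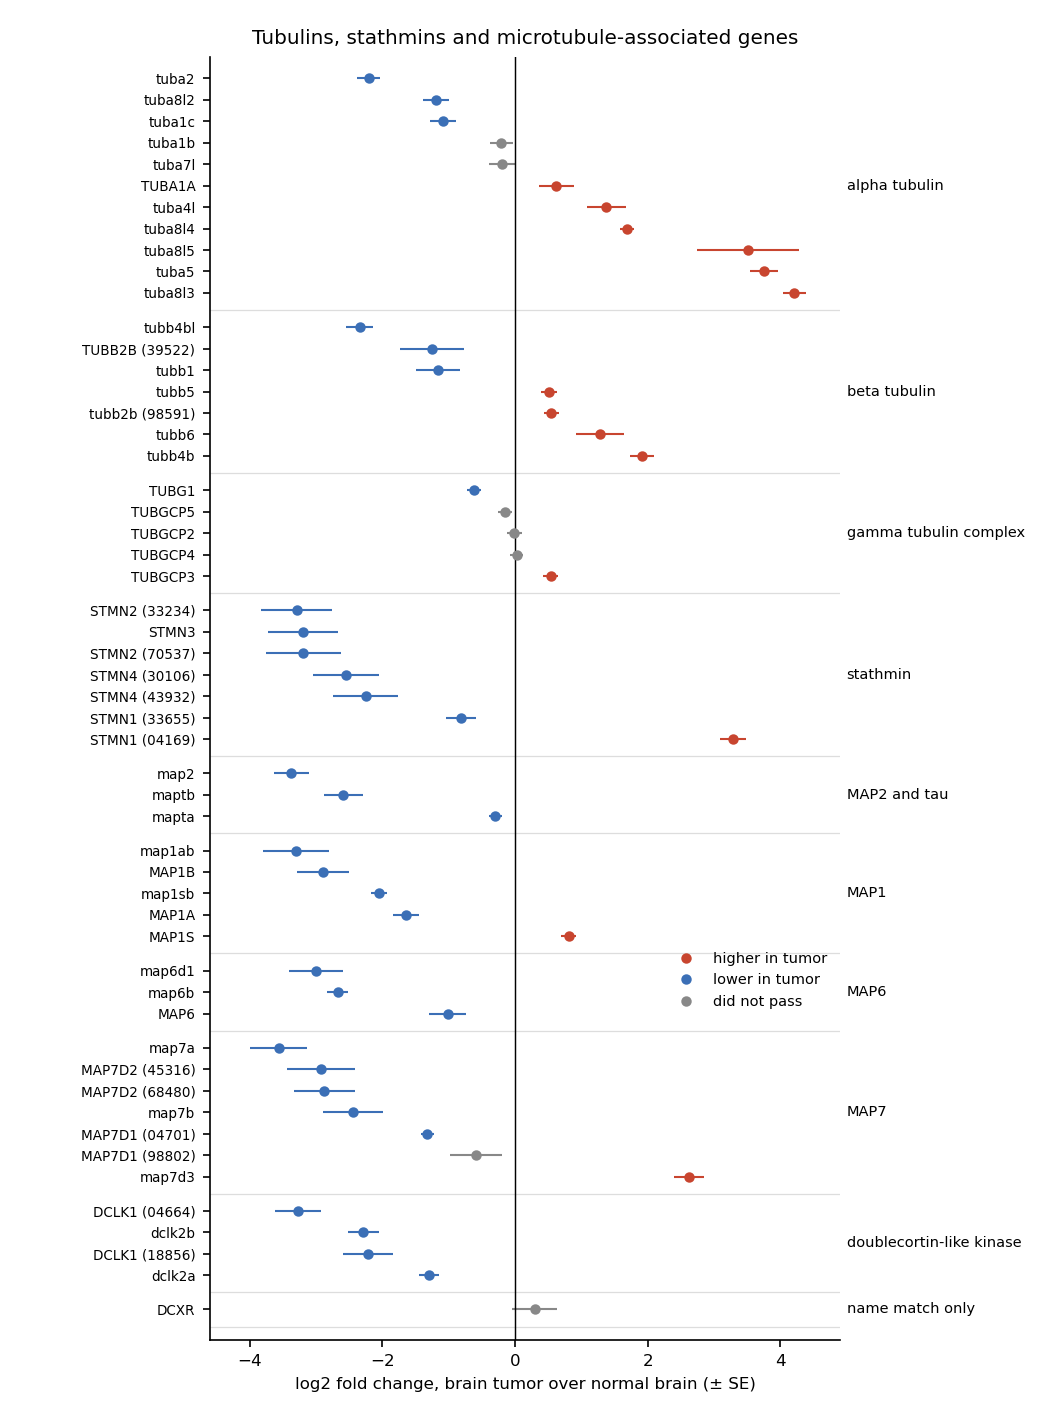
Log2 fold change (brain tumor over normal brain, points) with its SE (bars) for the 53 tested gene IDs, grouped by family and ordered within each, with red for higher, blue for lower and grey for IDs that did not pass; numbers in brackets are the last digits of the Ensembl ID. The stathmin, MAP and doublecortin-like kinase families lie mostly to the left, down to -3.56 for map7a, and the alpha tubulins spread from -2.21 to 4.21.

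The mixture of alpha tubulin isotypes differed between the groups. Summed over its 11 genes on the per-length scale of the deposited FPKM values (counts per kilobase of transcript, scaled to library size), alpha tubulin stood at 887 ± 41.8 in normal brain and 1749.8 ± 105 in brain tumor (mean ± SD, n = 8 and 7), with every tumor above every normal brain. Of these, 6 genes rose (54.5%), 3 fell (27.3%) and tuba1b and tuba7l did not pass. These shares are not far from the 43.5% higher and 33.4% lower over all tested genes. The gene tuba8l3 (ENSDARG00000070155) was at 53.3, 58 and 80.8 CPM (lowest, median and highest) in normal brain and at 637, 1122 and 1499 CPM in the tumors. Its lowest tumor, number 8, was still far above the highest normal brain, number 4, and its log2 fold change was 4.21 ± 0.17 (SE; adjusted p = 2.15e-11 in edgeR's quasi-likelihood test), the largest increase among the members. Its share of alpha tubulin FPKM was 4.56% ± 0.705 in normal brain and 39.1% ± 8.81 in brain tumor, where it was the most abundant alpha isotype in 6 of 7 libraries, all but tumor 8.

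A pair of further alpha isotypes rose without overlap between the groups. Of the 11 alpha tubulins, 4 lay above and 3 below normal brain in every tumor in CPM. Over all tested genes these shares were 27.2% and 24.6%. The values of tuba5 were 20.7, 24.7 and 42.2 CPM in normal brain and 227, 385 and 539 CPM in the tumors, highest in tumor 14 and lowest in tumor 7 (log2 fold change 3.76 ± 0.21). Already abundant in normal brain, tuba8l4 went from 231, 253 and 279 CPM to 634, 879 and 969 CPM (1.69 ± 0.10) and made up 26.5% ± 5.48 of tumor alpha tubulin FPKM, against 17.3% ± 0.508 in normal brain. At a low level tuba4l also lay higher in every tumor on the CPM scale, though not in FPKM, with a mean of 2.7 ± 1.34 against 1.03 ± 0.28 CPM (1.38 ± 0.29).

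The isotypes that dominated normal brain fell. The gene tuba2 read 706, 798 and 859.7 CPM in normal brain and 124, 135 and 273 CPM in the tumors, where tumor 8 was highest and tumor 5 lowest (log2 fold change -2.21 ± 0.17). Its share of alpha tubulin FPKM was 24.8% ± 0.905 in normal brain and 2.54% ± 0.96 in the tumors. For tuba1c the values were 313, 352 and 387 CPM in normal brain and 106, 126 and 279 CPM in the tumors (-1.09 ± 0.20), and its share went from 24.2% ± 1.17 to 5.2% ± 1.56. Expressed at a lower level, tuba8l2 also fell in every tumor (-1.19 ± 0.20), from 77.8 ± 11.3 to 34 ± 10.6 CPM. On the FPKM scale tuba2 and tuba1c, the leading pair in normal brain, were each below both tuba8l3 and tuba8l4 in each of the 7 tumors.

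**Figure D2:**
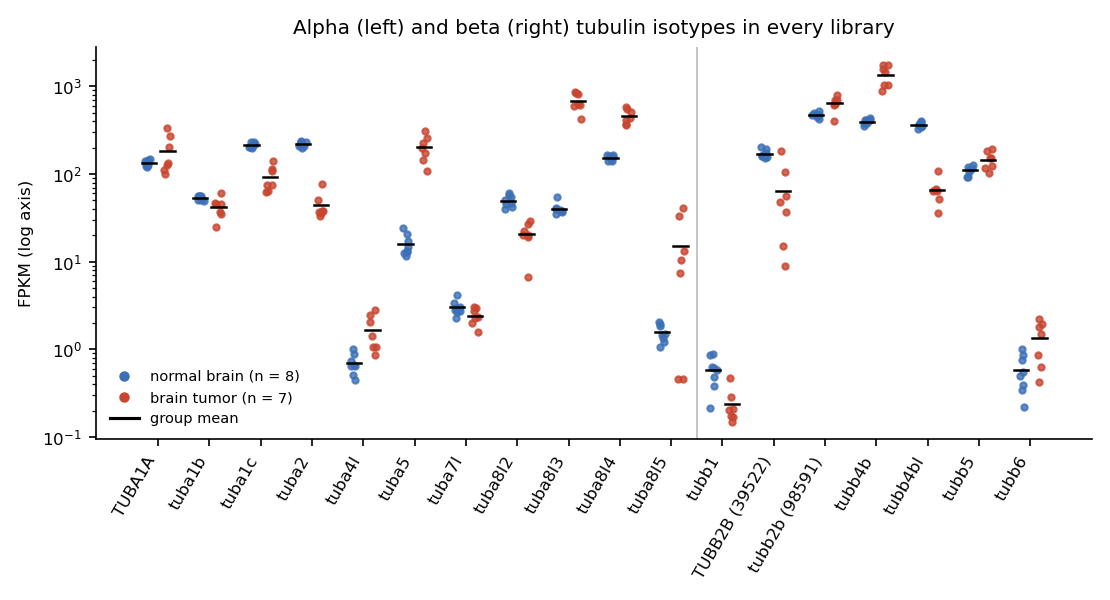
FPKM (log axis) of each alpha and beta tubulin gene in every library, with blue points for the 8 normal brains, red points for the 7 tumors and a black line at each group's mean. Red and blue points are fully apart for tuba8l3, tuba5, tuba8l4, tuba1c, tuba2, tuba8l2, tubb4b and tubb4bl. The tumor points of tuba8l5 run from below to above the normal range, those of TUBB2B from below into it.

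TUBA1A, in mammals the main alpha tubulin of developing neurons, behaved differently from tumor to tumor. Its counts were 608 CPM in tumor 7, 511 CPM in tumor 13 and 303 CPM in tumor 8, and between 157 and 204 CPM in the other 4 tumors. Normal brains lay between 184 and 221 CPM, so 3 tumors were above all of them, 2 were within their range and 2 below it. The log2 fold change of 0.62 ± 0.27 passed narrowly (adjusted p = 0.0435) and did not pass under 19 of 26 alternatives, with 0.37 without tumor 7 and 0.43 with median-ratio scaling. Among the alpha tubulins the tumors spread most in tuba8l5, at 184 CPM in tumor 13, 143 CPM in tumor 7 and 49.1, 39 and 25.9 CPM in tumors 5, 12 and 8, but 1.68 and 1.63 CPM in tumors 6 and 14. Both of these last were below every normal brain (3.74 to 7.32 CPM), and the gene passed as higher (3.51 ± 0.77). On the RefSeq assembly GRCz12tu, which may not be the build of the table, tuba8l3 and tuba8l5 are neighbours, as are tuba1a, tuba1b and tuba1c. The neighbours differed in the tumors: tuba8l3 rose in all 7 and tuba8l5 lay above normal brain in 5, while tuba1c fell and tuba1b did not pass (82 ± 4.75 against 71.1 ± 24.7 CPM, log2 fold change -0.21 ± 0.17). As lower, tuba1b passed under 4 alternatives: median-ratio scaling (-0.41, adjusted p = 0.0348), library size alone (-0.34, 0.0376), DESeq2 (-0.41, 0.0302) and without tumor 7 (-0.35, 0.0418).

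Beta tubulin shifted toward tubb4b, a broadly used isotype that in mammals also serves cilia. Its 7 genes summed to 1513 ± 74.5 FPKM in normal brain and 2286 ± 384 FPKM in brain tumor, without overlap. The gene tubb4b measured 648, 699.5 and 781 CPM in normal brain and 1599.8, 2602 and 3926 CPM in the tumors, highest in tumor 13 and lowest in tumor 6, a log2 fold change of 1.92 ± 0.18 (adjusted p = 7.53e-08). It took 26.2% ± 1.11 of beta tubulin FPKM in normal brain and 58.8% ± 7.00 in the tumors, at least 50.1% in each tumor. The similarly named tubb4bl went the other way, from 547, 613 and 694 CPM to 63.4, 111 and 219 CPM (-2.34 ± 0.21), and its share from 23.9% ± 1.04 to 2.93% ± 1.04. Of 7 marker IDs of ciliated cells 4 fell and 3 did not pass (57.1% lower, against 33.4% of all tested genes). They summed to 19.3 to 27.5 CPM in normal brain and 1.33 to 19.8 CPM in the tumors. The part of cilia in the tubb4b values was not tested.

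Of the IDs named TUBB2B, an isotype of migrating and young neurons in mammals, the copy ENSDARG00000098591 (written tubb2b) was the most abundant beta tubulin of normal brain and rose modestly, from 643, 718 and 822 CPM to 739, 1034 and 1342 CPM (0.55 ± 0.11). In CPM tumor 7 lay within the normal range and the other 6 tumors above it, but in FPKM tumor 7 (403) was below every normal brain (424 to 529.6). The copy ENSDARG00000039522 (written TUBB2B) fell, from 239.9, 258 and 318 CPM to 18, 76.2 and 352 CPM (-1.25 ± 0.48, adjusted p = 0.0259), but tumor 7 held 352 CPM, above every normal brain, though within their range in FPKM. Leaving tumor 7 out gave -1.87, and the call was lost without tumor 6 (adjusted p = 0.0524), without the 4 libraries in doubt (0.0728), and in libraries 1 to 8 (0.171) or 9 to 15 alone (0.0578). The gene tubb5 rose from 198, 248 and 273 CPM to 222, 340.3 and 419 CPM (0.51 ± 0.12), with tumor 14 inside the normal range in CPM. In FPKM tumors 7, 13 and 14 (116, 125 and 102) lay inside the normal range of 92.3 to 126. The tubb5 call was lost in libraries 9 to 15 alone (0.33, adjusted p = 0.215). Among the rare isotypes tubb6 rose (1.28 ± 0.37) and tubb1, an isotype of platelets and their precursors in mammals, fell (-1.16 ± 0.33), both at means under 2 CPM. The tubb1 call was lost with limma-voom (adjusted p = 0.121) and in libraries 9 to 15 alone (0.114). Its counts were high enough for a test under only 18 of the 26 alternatives, and the call held under 16. The tubb6 call was lost in libraries 1 to 8 (adjusted p = 0.059) and 9 to 15 alone (0.0973). The sources used here do not say how reads that match several near-identical tubulin genes were assigned, and the values of single isotypes carry that uncertainty.

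**Figure D3:**
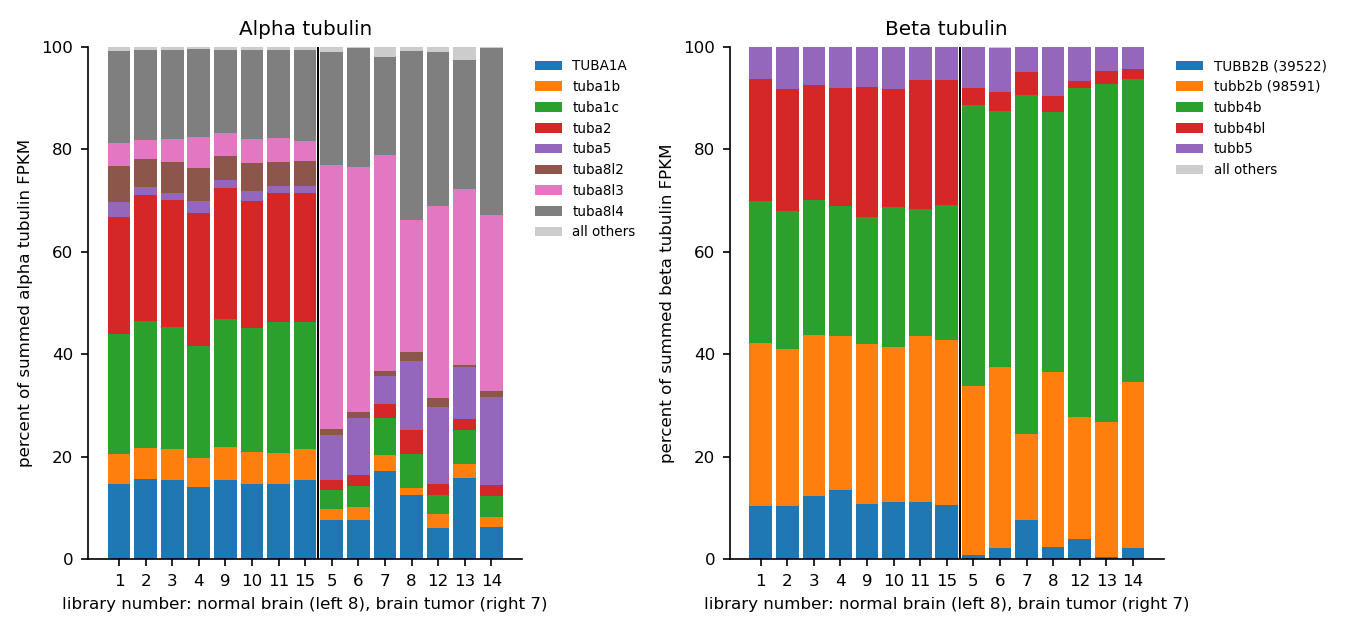
Share of each isotype in the summed FPKM of alpha tubulin (left) and beta tubulin (right) in every library, with the 8 normal brains left of the black line and the 7 tumors right of it. The 8 normal brains look alike, with tuba2 and tuba1c the widest alpha tubulin bands, while tuba8l3 takes 25.8% to 51.6% of alpha tubulin and tubb4b 50.1% to 66.3% of beta tubulin in the tumors.

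Of the 5 genes of gamma tubulin and its complex 1 fell, 1 rose and 3 did not pass (20% lower and 20% higher, against 33.4% and 43.5% of all tested genes). TUBG1, the gamma tubulin that starts new microtubules at centrosomes, fell from 48, 53.1 and 55.3 CPM to 27.6, 30.5 and 42.7 CPM, a log2 fold change of -0.61 ± 0.10 with every tumor below every normal brain. TUBGCP3, a core subunit of the gamma tubulin ring complex, rose (0.53 ± 0.12), from 38.2, 42.4 and 46.9 CPM to 42.5, 66.8 and 75.4 CPM. In CPM tumor 13 was inside the normal range and the other 6 above it. In FPKM tumor 13 (8.8) was below every normal brain (10.1 to 12.3) and tumor 7 (10.4) inside their range. The TUBGCP3 call was lost in libraries 9 to 15 alone (0.18, adjusted p = 0.423). The 3 further subunit genes TUBGCP2, TUBGCP4 and TUBGCP5 did not pass, at -0.01 ± 0.12, 0.03 ± 0.10 and -0.15 ± 0.11. TUBGCP5 passed as lower under 4 alternatives, such as median-ratio scaling (-0.34, adjusted p = 0.0183).

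Stathmins fell in 6 of 7 cases (85.7%, against 33.4% of all tested genes), and the exception was 1 of the STMN1 copies. On the per-length scale they summed to 1776 ± 85.6 FPKM in normal brain and 687 ± 194 FPKM in brain tumor. STMN1, the founding stathmin, is used by both dividing cells and neurons. Its copy ENSDARG00000004169 stood at 9.87, 14.5 and 19.4 CPM in normal brain and 100.3, 135 and 221 CPM in the tumors, highest in tumor 13 and without overlap (log2 fold change 3.29 ± 0.20, adjusted p = 5.72e-10). Its other copy, ENSDARG00000033655, was the most abundant stathmin in every library and fell from 1248, 1429 and 1628 CPM to 315, 894 and 1191 CPM (-0.82 ± 0.22), lowest in tumors 5 and 14 and again without overlap, though not past the threshold in libraries 1 to 8 alone (-0.81, adjusted p = 0.0609). The rising copy took 0.77% ± 0.162 of stathmin FPKM in normal brain and 19.5% ± 7.28 in the tumors.

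STMN2, STMN3 and STMN4 are membrane-anchored stathmins of neurons, and STMN2 is known from growth cones. Both STMN2 copies fell: ENSDARG00000033234 had 637, 713 and 739 CPM in normal brain and 1.99, 75.1 and 163 CPM in the tumors (-3.29 ± 0.53). The copy ENSDARG00000070537 had 358, 390.4 and 419 CPM and 0.589, 40.6 and 99.3 CPM (-3.19 ± 0.56). In each copy tumor 8 was highest and tumor 13 lowest, and on the log2 scale most of the group's range lay between tumor 13 and the next tumor. STMN3 fell from 124, 151 and 161 CPM to 0.515, 13 and 38.6 CPM (-3.20 ± 0.53). Of the STMN4 copies, ENSDARG00000030106 went from 497, 552 and 621 CPM to 6.04, 94.9 and 230.1 CPM (-2.55 ± 0.50). The rarer copy ENSDARG00000043932 went from 56.8, 68.7 and 87 CPM to 0.294, 14.2 and 30.7 CPM (-2.25 ± 0.49). In STMN3 and both STMN4 copies tumors 8 and 13 were again the highest and the lowest.

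MAP2, the stabiliser of dendritic microtubules, fell in all tumors. The gene map2 (ENSDARG00000055052) had 303, 337 and 391 CPM in normal brain and 17.9, 28.8 and 57.4 CPM in the tumors, highest in tumors 8 and 6 (log2 fold change -3.37 ± 0.27, adjusted p = 1.26e-08). Tau, the stabiliser of axonal microtubules, is encoded by a pair of genes that parted. The gene maptb went from 323, 395 and 429 CPM to 24.4, 50.7 and 139 CPM (-2.59 ± 0.29), and here tumor 13, the lowest in neuron markers, was the highest tumor. For mapta the values were 175, 197 and 219 CPM in normal brain and 129.7, 161 and 195 CPM in the tumors, which overlapped, and the small decrease of -0.30 ± 0.10 passed (adjusted p = 0.0101). It did not pass in libraries 1 to 8 alone (-0.22, adjusted p = 0.240).

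MAP1A and MAP1B are large neuronal MAPs, the first of mature dendrites and the second of growing axons. The gene map1ab held 1673, 1815 and 2015 CPM in normal brain and 13.1, 205 and 319 CPM in the tumors, down to 13.1 in tumor 13 and 51.4 in tumor 5 (-3.30 ± 0.50). MAP1A (ENSDARG00000059601) went from 492, 593 and 628 CPM to 120.4, 167 and 367 CPM (-1.64 ± 0.20), with tumor 6 highest. MAP1B went from 283, 304 and 362 CPM to 4.49, 44.4 and 80.2 CPM (-2.90 ± 0.40), with tumor 7 highest and tumor 13 lowest. None of these 3 genes overlapped between the groups, where 24.6% of all tested genes had every tumor below every normal brain. MAP1S, a family member used in many tissues, divided between its copies. MAP1S (ENSDARG00000060805) rose from 37, 40.9 and 46.1 CPM to 54.4, 69.5 and 86.8 CPM (0.81 ± 0.11), and map1sb fell from 88.9, 99.2 and 107 CPM to 20.6, 21.4 and 35.2 CPM (-2.05 ± 0.12), both without overlap.

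The MAP6 family, whose founding member keeps neuronal microtubules stable in the cold, fell in 3 of 3 cases, where 33.4% of all tested genes were lower. The genes map6b and map6d1 lay below normal brain in every tumor (-2.67 ± 0.16 and -3.01 ± 0.41). MAP6 (ENSDARG00000074521) fell (log2 fold change -1.02 ± 0.28), but tumor 13 held 42 CPM, within the normal range of 37.3 to 45.2 CPM, where the other 6 tumors lay between 7.99 and 28.4 CPM. Its call was lost in libraries 9 to 15 alone (-1.16, adjusted p = 0.0755). MAP7 proteins recruit the motor kinesin-1 to microtubules. Of 7 IDs 5 fell (71.4%, against 33.4% of all tested genes). The gene map7a had the largest decrease of all members, from 50.6, 68.9 and 81.7 CPM to 0.663, 5.39 and 11.2 CPM (-3.56 ± 0.43). The MAP7D2 copy ENSDARG00000045316 went from 323, 357 and 382 CPM to 1.69, 45.2 and 101 CPM (-2.93 ± 0.51), lowest in tumor 13. The other MAP7D2 copy, ENSDARG00000068480, and map7b fell as well (-2.88 ± 0.46 and -2.45 ± 0.45), and in tumor 13 each was down to 0.0736 CPM, a single count. MAP7D1 fell in copy ENSDARG00000104701, from 133, 142 and 158 CPM to 46.1, 56.3 and 67.5 CPM (-1.32 ± 0.10), and did not pass in copy ENSDARG00000098802 (-0.59 ± 0.39), which ranged from 4.27 CPM in tumor 13 to 98.4 CPM in tumor 7 and passed under 3 alternatives, such as without tumor 7 (-1.09, adjusted p = 0.00418).

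The 1 family member that rose was map7d3, at 53.6, 60.4 and 63.9 CPM in normal brain and 166, 328 and 605 CPM in the tumors (2.62 ± 0.23, adjusted p = 4.37e-08). Tumors 13 and 7 were highest and tumor 8 lowest, and no tumor overlapped the normal brains. Doublecortin-like kinases join the microtubule-binding domains of doublecortin, a protein of migrating neurons, to a kinase. The 4 tested IDs fell without overlap, where 24.6% of all tested genes had every tumor below every normal brain. Their log2 fold changes were -3.27 ± 0.35 and -2.22 ± 0.38 for the DCLK1 copies ENSDARG00000104664 and ENSDARG00000018856, -2.29 ± 0.23 for dclk2b and -1.30 ± 0.15 for dclk2a. In the more abundant DCLK1 copy, ENSDARG00000018856, normal brains held 191, 206 and 224 CPM and tumors 10.46, 33.5 and 107 CPM, with tumor 7 highest. DCLK3, not tested here, had 3 to 16 counts in the normal brains and 0 to 12 in the tumors, most in tumor 14, with means of 0.594 CPM in normal brain and 0.144 CPM in the tumors, where 3 counts stand for 0.141 to 0.22 CPM over the libraries. In the authors' deposited table DCLK3 is called lower (log2 fold change -2.02, adjusted p = 0.00265).

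Because several IDs called copies by their symbols parted, the balance of 2 copies was compared within each library. It was taken as a log2 ratio, the difference of their log2 CPM. The scaling of the libraries cancels out of it, apart from the prior count of 2, which shrinks ratios of low counts. Pairs were the 13 sets of 2 IDs with the same symbol, with symbols ending in a and b, or with a b added. Tubulin symbols that differ in their last letter, such as TUBA1A and tuba1b, and MAP1A with MAP1B were left out. In 9 of the 13 pairs the ratio differed between the groups in a two-sided exact permutation test (adjusted p below 0.05 over the 13 pairs), and in 5 of them no tumor overlapped a normal brain. Such shares were not worked out for other pairs of genes. Singly, 76.9% of all tested genes passed, and 27.2% lay above and 24.6% below normal brain in every tumor. The counts of pairs are thus not shown to be particular to gene copies. For STMN1 the ratio of the rising to the abundant copy went from -6.64 ± 0.25 in normal brain to -2.43 ± 0.66 in brain tumor (SD, n = 8 and 7; exact permutation p = 0.000155, the smallest the test can give, adjusted 0.000404). MAP1S over map1sb went from -1.26 ± 0.11 in normal brain to 1.60 ± 0.26 in brain tumor, and MAP1S was below map1sb in every normal brain and above it in every tumor, on the FPKM scale too. The ratio of mapta to maptb went from -0.97 ± 0.11 in normal brain to 1.496 ± 0.80 in brain tumor, and MAP1A over map1ab went from -1.63 ± 0.10 in normal brain to 0.51 ± 1.55 in brain tumor. In MAP6 over map6b the ratio was 0.26 ± 0.11 in normal brain and 1.72 ± 1.02 in brain tumor. These 4 pairs had the same exact permutation p as STMN1. The ratios were compared because copies had parted in these same data, so their p-values are no independent support. In the STMN1 and MAP1S pairs each copy alone was without overlap, in opposite directions, which by itself left no overlap in the ratio. TUBB2B over tubb2b went from -1.41 ± 0.17 in normal brain to -3.82 ± 1.69 in brain tumor (p = 0.00124, adjusted 0.00231 in the exact permutation test), with tumor 7 at the level of normal brain. The copies of DCLK1, dclk2 and map7 also differed in ratio (exact permutation adjusted p = 0.0287, 0.000673 and 0.0157). For DCLK1 the difference of 0.94 lost its call without tumor 7 (0.63, exact permutation adjusted p = 0.0592), without any 1 of normal brains 1, 2, 9, 10 and 15 (adjusted p = 0.053 to 0.0682, exact permutation test) and without the 4 libraries in doubt (0.89, exact permutation adjusted p = 0.131). For map7 it was lost with a prior count of 0.5 in place of 2 (-0.85, exact permutation adjusted p = 0.0563).

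For the other 4 pairs no difference passed. For the STMN2 copies the difference in log2 ratio between the groups was 0.01 (exact permutation p = 0.976), for MAP7D2 -0.10 (p = 0.728, exact permutation test), for STMN4 -0.26 (p = 0.294, exact permutation test) and for MAP7D1 0.32 (p = 0.5, exact permutation test). These ratios had an SD of 0.33 to 1.18 over the tumors. Without tumor 13 the differences of STMN4 (-0.45) and MAP7D1 (0.71) passed (exact permutation adjusted p = 0.00822 and 0.00108), and that of STMN2 turned to -0.11 and did not (exact permutation adjusted p = 0.053). A p above the threshold does not show that the copies change alike.

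**Figure D4:**
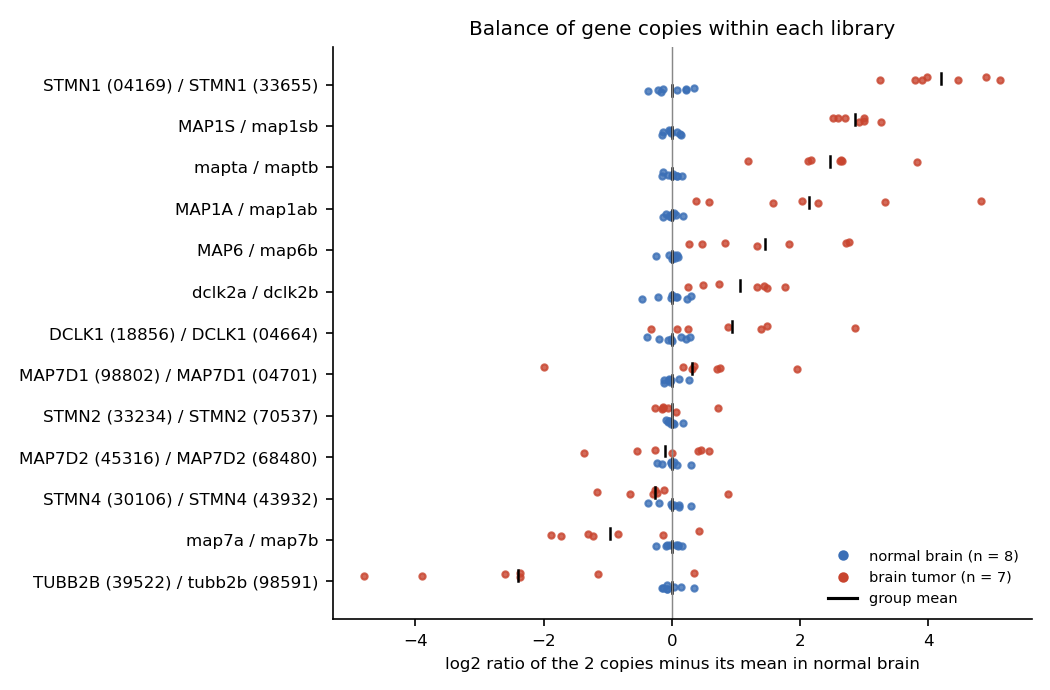
Log2 ratio of 2 copies in each library minus its mean over the normal brains, for the 13 pairs ordered by the difference between the groups, with blue points for the 8 normal brains, red points for the 7 tumors and black lines at the group means. The STMN1, MAP1S, mapta, MAP1A and MAP6 pairs have every tumor to the right of every normal brain, while the STMN2, MAP7D2 and STMN4 pairs scatter around 0.

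Within the tumors 10 members rose and fell with the neuron markers from library to library. Each of the 54 IDs was correlated over libraries with the mean log2 CPM of the neuron markers and of the cell division markers, within each group, giving 216 relations. For the neuron markers in the 7 tumors 10 members passed (exact permutation test, adjusted p below 0.05 over the 216): STMN3, both copies of STMN2 and of STMN4, map1ab, map6d1, map7a, the MAP7D2 copy ENSDARG00000045316 and the DCLK1 copy ENSDARG00000104664. That is 18.5% of the members. Of the tested genes that are no neuron marker, 3.04% had a positive r and an exact permutation p of at most 0.001389. That limit is the largest exact permutation p among the 10 members. It was thus set by the members' own values, and the shares are no independent comparison. STMN3 had Pearson's r = 0.99 (exact permutation p = 0.000397, adjusted 0.0214) and Spearman's rho = 0.96 (exact permutation p = 0.00278, adjusted 0.0667), and r = 0.93 without tumors 13 and 5, the libraries farthest from the median of the markers. No rho passed after adjustment, and the smallest adjusted p of a rho over the 216 relations was 0.0667. Tumor 13 stood apart with a marker mean of 1.49 log2 CPM, where the other tumors lay between 3.45 and 5.87. Without tumor 13 the 10 members had r between 0.92 and 0.99 (exact permutation p between 0.00278 and 0.0194, not adjusted, n = 6). The 10 were selected on all 7 tumors, so these values are no independent check.

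Some members did not follow. In tumor 13, where STMN2, map1ab and MAP7D2 were at their lowest, maptb (139 CPM) and MAP6 (42 CPM) were at their highest among the tumors. For maptb r was -0.32 over the 7 tumors (exact permutation p = 0.47, adjusted 0.719) and 0.59 without tumors 13 and 5, so the sign of its relation rests on those samples. For map7d3, the rising member of its family, r was -0.79 with rho = -0.96 (exact permutation p = 0.0286 and 0.00278, adjusted 0.222 and 0.0667). Among the normal brains 1 relation passed, that of MAP1S with the division markers (r = 0.92, exact permutation adjusted p = 0.0273), over a range of 2.079 to 2.641 log2 CPM in the markers. In the tumors no relation with the division markers passed. There the rising STMN1 copy had r = 0.66 and tubb4b r = 0.64 (exact permutation adjusted p = 0.4165 and 0.4197). Over 7 tumors this does not show that a relation is absent.

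**Figure D5:**
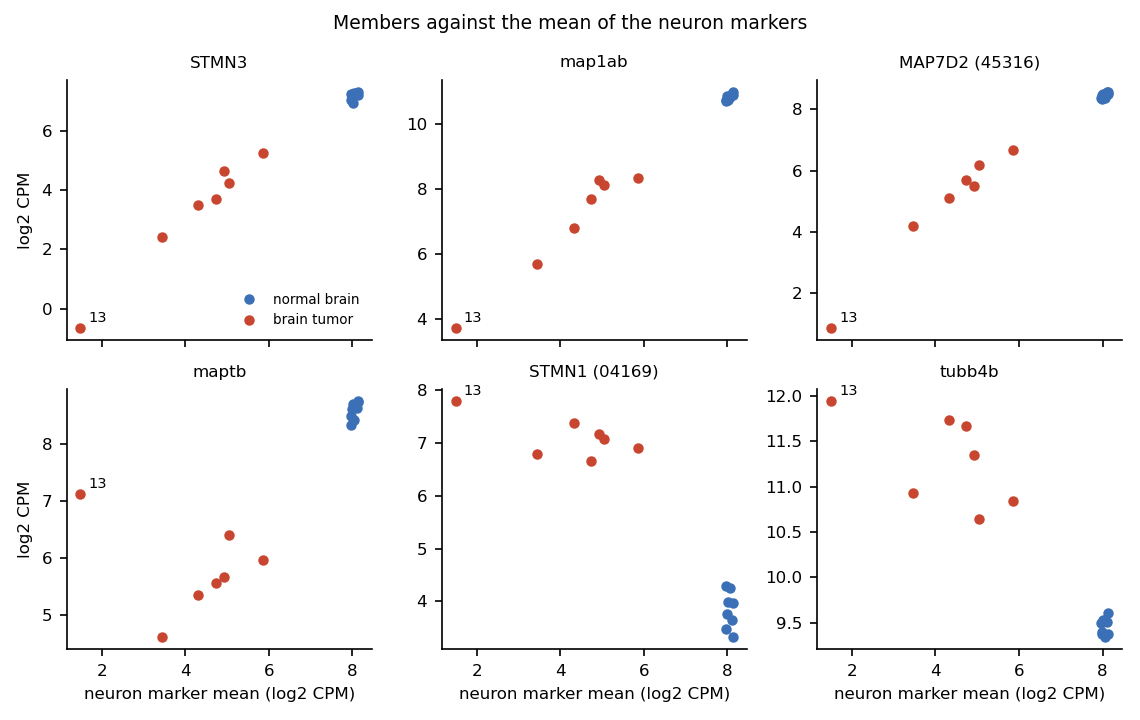
Log2 CPM of 6 members (vertical axes) against the mean log2 CPM of the neuron markers (horizontal axes) in each library, with blue points for the 8 normal brains and red points for the 7 tumors, tumor 13 marked. STMN3, map1ab and MAP7D2 rise with the markers over the tumors, maptb does so except for tumor 13, and the rising STMN1 copy and tubb4b show the tumors apart from the normal brains.

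Other genes of the microtubule system were counted from lists chosen by name, to be read against the 43.5% higher and 33.4% lower over all tested genes. Spindle proteins rose in 14 of 15 cases (93.3%), with a median log2 fold change of 4.13, among them the microtubule bundler PRC1 (ENSDARG00000005993, 5.34 ± 0.25), the spindle assembly factor TPX2 (5.03 ± 0.23) and ckap2l (3.94 ± 0.17), and KANSL1 (ENSDARG00000088238) did not pass. This list overlaps in function with the cell division markers, whose sum rose with it. Of 20 IDs for nucleation, minus ends and the augmin complex, which branches new microtubules from old ones in the spindle, 13 rose and 6 fell (65% and 30%, median 0.83). The increases include all 7 augmin IDs found, such as HAUS3 (4.47 ± 0.24), and cdk5rap2 (2.16 ± 0.12), which ties gamma tubulin to centrosomes. The decreases are 5 of the 6 CAMSAP IDs, which cap the free minus ends used by neurons, such as CAMSAP1 (ENSDARG00000019208, -2.05 ± 0.13) and CAMSAP2 (ENSDARG00000062173, -2.09 ± 0.17), and the scaffold gene akap9.

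Severing enzymes, which cut microtubules, rose in 7 of 8 cases (87.5%, with 12.5% lower, against 43.5% and 33.4% of all tested genes, median 0.99), with FIGNL1 (2.49 ± 0.21) and the katanin subunit KATNA1 (1.99 ± 0.19) leading, and FIGN fell (-4.18 ± 0.43). Of the 23 IDs that track growing plus ends, 7 were higher and 11 lower (30.4% and 47.8%, median -0.23). Here the EB1 genes mapre1b (1.45 ± 0.09) and MAPRE1 (2.21 ± 0.21) rose and both copies of MAPRE3, the EB3 of neurons, fell (ENSDARG00000020231, -1.61 ± 0.12, and ENSDARG00000102878, -1.42 ± 0.12). Of the 25 IDs for enzymes that modify tubulin, 4 were higher and 11 lower (16% and 44%, median -0.05). The tubulin deacetylase genes HDAC6 (1.39 ± 0.15) and SIRT2 (1.34 ± 0.24) and the glutamylase gene ttll4 (1.84 ± 0.11) rose, and AGBL4 (-2.41 ± 0.20), which removes glutamates, and TTLL2 (-2.61 ± 0.29) fell. Tubulin folding cofactors rose in 4 of 9 cases, a share of 44.4% that is near the background of 43.5%, and none fell (median 0.22). TBCCD1 (1.39 ± 0.15) and tbce (0.81 ± 0.09) had the smallest p. With median-ratio scaling 4 of these rose and 3 fell, so the direction of the small changes in this list depends on the scaling.

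Of the 54 IDs, 13 were higher and 35 lower at an adjusted p below 0.05 in the authors' deposited table. In the authors' deposited table the sign of the log2 fold change differed from the one given here for 1 tested ID, TUBGCP4, which passed in neither.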

How the data were processed

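Poly(A) RNA of dissected tissue was sequenced as single reads of 50 cycles on an Illumina HiSeq 2000, per the labels' protocols. The deposited table of 22513 genes holds the authors' whole-number counts and FPKM values in each of 15 libraries, and the authors' log2 fold change and adjusted p-value of tumor over control, per the file headers. Novoalign 2.08.01 and DESeq2 are named in the submitters' processing notes. For the counting tool, genome build, annotation and treatment of reads with several matches, nothing is stated in the sources used here. Every ID of the table had at least 10 counts over all libraries. FPKM was used for levels between genes, sums and shares, counts for every test.

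Gene IDs were matched to symbols by the gene name table used here (20915 of 22513). The members and lists were chosen with earlier results of these data known. Counts were fitted with edgeR 4.0.16 (R 4.3.3): filterByExpr (minimum count 10, minimum total 15), TMM scaling, glmQLFit and glmQLFTest of 7 tumors against 8 normal brains, with Benjamini-Hochberg adjustment over the 19260 tested genes and a threshold of 0.05. The SE is the absolute log2 fold change divided by the square root of F. The fit was tested on simulated data first. CPM uses the TMM-scaled library size, and log2 CPM adds a prior count of 2. Copy ratios and correlations were tested with exact permutations over libraries, where the ratios and the p-values of the correlations were added after seeing the data. Named genes are all members, and of each other list the 2 with the smallest p in each direction. PRC1, KANSL1, SIRT2 and akap9 were named after their values were seen. Alternatives were RLE, upper-quartile and library-size scaling, no filter, robust dispersions, DESeq2 1.42.0, limma 3.58.1 voom with group weights, subsets of libraries and leaving out each library. The RefSeq gene table of GRCz12tu gave neighbours by symbol. Depth was 13605588 to 21347976 counts, and intervals of such counts cover counting error only. No sequences were used here.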

Additional observations from a re-analysis of the deposited data

Results flagged for a closer look

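Within each group the highest and the lowest library of each of the 54 IDs were compared with the others by Dixon's test on log2 CPM. Of 108 groups tested 12 had such a library, a share of 11.1%, where chance gives about 1 in 20 and 8.29% of such groups over all tested genes had one. Of the 12 libraries 9 were tumor 13, the tumor with the lowest neuron markers, which stood apart in 16.7% of the members and in 5.87% of all tested genes, more than any other library. For the STMN2 copies tumor 13 read 1.08, where the other libraries of the group lay between 5.09 and 7.35 (ENSDARG00000033234), and -0.49 against 4.49 to 6.64 (ENSDARG00000070537). For the STMN4 copy ENSDARG00000043932 it read -1.27 against 2.74 to 4.94, and for map7b -2.36 against 0.85 to 2.82. The MAP7D2 copies read 0.86 against 4.19 to 6.66 (ENSDARG00000045316) and -2.36 against 2.43 to 3.85 (ENSDARG00000068480) in tumor 13. In the same tumor the MAP7D1 copy ENSDARG00000098802 read 2.13 against 4.75 to 6.62, the DCLK1 copy ENSDARG00000104664 0.92 against 2.85 to 4.29 and the alpha tubulin gene tuba8l2 3.73 against 5.02 to 5.55. Tumor 7 stood above the other tumors in map1sb, at 5.14 against 4.37 to 4.70. Normal brain 4 stood above the other normal brains in tuba8l3, at 6.34 against 5.74 to 5.96. It was also the normal brain with the most skin, oligodendrocyte lineage and microglia markers, whose part in this value was not tested. Normal brain 11 stood above the others in TUBGCP2, at 5.48 against 5.06 to 5.18.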

How the results depend on the processing

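The counts of members stayed within 1.5 times of 14 higher and 32 lower under all 26 alternatives, at 10 to 14 higher and 28 to 35 lower (13 to 14 and 31 to 34 when single libraries were left out). Of the 53 tested members 41 kept their side of the threshold under every alternative that tested them, 38 of them also their direction. Of the log2 fold changes of called members none changed sign. The sign turned for 3 uncalled members, TUBGCP2, TUBGCP4 and DCXR. For the 12 members whose call changed, the change is given beside their values. In the list of tubulin folding genes 0 members were lower, but 3 with median-ratio size factors, 1 with library size alone, 3 with DESeq2 and 2 among genes with a mean of at least 5 CPM, and 0 to 1 when single libraries were left out. Among the spindle proteins 0 were lower, but 1 with median-ratio size factors, with library size alone, with DESeq2 and among genes of at least 5 CPM, and 0 to 1 when single libraries were left out. The 1 severing gene that fell was not tested at a mean of at least 5 CPM, which left 0. As shares of counts in place of FPKM, TUBA1A took 10.7% of alpha tubulin in normal brain, tuba1c 18.9%, tuba2 42.5% (5.47% in the tumors), tuba8l3 3.29% and tuba8l4 13.75%, and of beta tubulin tubb2b took 28.2% and tubb4b 27.6% in normal brain, since counts grow with transcript length. The difference in log2 ratio of the STMN2 copies changed sign without tumor 13, from 0.01 to -0.11 (exact permutation adjusted p = 0.053). The limit on genes of at least 5 CPM and all alternatives for the copy ratios were chosen after seeing the data. Summing near-identical copies was not run, since the protein sequences it needs were not used here. No paired analysis was possible because the labels give no pairing of tumors with normal brains.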
